A study of Mus musculus with 6 samples.

Results

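The genes described here are 9 components of Hedgehog signalling, by which the gut epithelium instructs the mesenchyme beneath it: the ligands Ihh and Shh, the receptor Ptch1, the ligand-binding inhibitor Hhip, the signal transducer Smo, the transcription factors Gli1, Gli2 and Gli3, and the mesenchymal transcription factor Foxl1. They were chosen by name and all 9 were found among the 55487 gene identifiers of the deposited table. A mean of at least 1 FPKM, fragments scaled to transcript length and library depth, was reached by 8 of them and by 15806 genes in all, which were tested. Shh fell below that level and is given by its values.

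RNA was sequenced from the terminal ileum, where the small intestine ends, of C57BL/6 mice at postnatal day 9, with 3 NEC and 3 control libraries. NEC is necrotizing enterocolitis, which inflames and destroys the gut of newborns, mostly those born too early. The mouse model joined 3 insults: hyperosmolar formula by gavage, oral lipopolysaccharide (4 mg/kg per day, postnatal days 6 and 7) and hypoxia (5% O2, 10 min, 3 times per day for 4 days). The control labels repeat this text, so what the controls received is not stated. No label names the animal behind a library, so p-values cover the spread between libraries, which may be technical.

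In the gut, Hedgehog ligands are made by the epithelium and act on mesenchymal cells. Ligand binding to Patched relieves its inhibition of Smoothened at the primary cilium, and Gli proteins then switch genes on, among them Gli1, Ptch1 and Hhip, which are widely read as targets of the pathway. Gli3 serves mainly as a repressor when no ligand is present. In the mouse intestine, Ihh is the main ligand after birth, and the receiving cells include smooth muscle, fibroblasts and the Foxl1-positive cells under the epithelium, which send Wnt and bone morphogenetic protein signals back to it.

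The promoter bases of a receptor that is also a target (Ptch1), of a transcription factor (Gli2) and of the ligand gene (Ihh) are shown because the RNA of Ptch1 and Gli2 fell in NEC while that of Ihh did not pass the test. Each run is the 250 bases before the RefSeq gene start on build GRCm38.p6, 5′ to 3′ on the gene's strand. All of them lie on the minus strand, Ptch1 at chr13:63565736-63565985, Gli2 at chr1:119053620-119053869 and Ihh at chr1:74951673-74951922, and no annotated exon overlaps these windows. That of Ptch1 lies within the annotated gene, which has longer transcripts. Capitals mark the core ACCACCC of the Gli consensus GACCACCCA, read on either strand.
Ptch1: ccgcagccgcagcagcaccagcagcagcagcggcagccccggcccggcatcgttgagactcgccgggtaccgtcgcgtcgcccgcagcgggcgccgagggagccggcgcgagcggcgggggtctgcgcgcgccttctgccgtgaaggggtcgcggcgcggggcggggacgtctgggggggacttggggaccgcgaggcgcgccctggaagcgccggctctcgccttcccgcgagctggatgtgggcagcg
Gli2: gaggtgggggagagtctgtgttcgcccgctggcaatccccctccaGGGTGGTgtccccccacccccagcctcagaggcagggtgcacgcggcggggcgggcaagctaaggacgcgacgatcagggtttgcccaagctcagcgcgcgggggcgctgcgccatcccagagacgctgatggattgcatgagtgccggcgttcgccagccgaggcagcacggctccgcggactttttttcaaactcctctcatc
Ihh: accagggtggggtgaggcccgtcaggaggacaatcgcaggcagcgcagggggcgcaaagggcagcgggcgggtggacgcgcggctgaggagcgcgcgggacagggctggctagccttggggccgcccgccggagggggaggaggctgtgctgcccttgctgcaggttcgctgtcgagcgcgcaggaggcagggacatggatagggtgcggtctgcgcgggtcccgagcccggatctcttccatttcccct
The RefSeq table matched 6 members, Ihh, Ptch1, Hhip, Smo, Gli2 and Gli3. The core was found once among them, in Gli2, on the opposite strand from 205 to 199 bases before the start, and 3.92% of 32851 promoters of this length held it. The consensus GACCACCCA, with up to 1 mismatch, was in 5.79% of all promoters and in 0 of the 6. These windows were rich in G and C, at 67.2% to 78.4%, against a median of 52.4% over all promoters. A match or its lack describes these letters only.

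Facts of the whole set bear on every value below. Steps in the values of single-transcript genes correspond to 15.2 to 18.7 M fragments per library. Over all tested genes the log2 change had a median of -0.26, NEC minus control, on the deposited scale and 0.00 after TMM scaling, so a fall is to be read against that median. NEC 1 stood apart: it was the lowest of the NEC libraries in 64.0% of tested genes, and the 7SL RNA gene Rn7s1 took 42.7% of its FPKM, against 27.3% to 32.2% in the other 5 libraries. Genes at 1 FPKM or more numbered 13461 to 14882 in the NEC libraries and 16290 to 16702 in the controls. The part of these library differences in the results was not tested. Epithelial markers were high in every library, with Epcam, a surface protein of epithelium, at 206 to 251 FPKM.

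The levels of Ihh RNA overlapped between the groups, while most genes of the receiving side were lower in NEC ileum. Of the 8 tested members, 6 fell (Smo, Gli1, Foxl1, Gli3, Gli2 and Ptch1), none rose, and Ihh and Hhip did not pass an adjusted p of 0.05 (limma, Benjamini-Hochberg over all tested genes). Of all tested genes, 38.2% were called, 30.6% lower and 7.69% higher. The median log2 change of the 8 members was -0.97. After TMM scaling 5 members were called lower, all of these but Ptch1, and Ihh was called higher. In that setting 2255 of all 15806 tested genes were lower and 2634 higher. In the bulk RNA of a tissue, fewer cells of a type and less RNA per cell cannot be told apart.

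**Figure D1:**
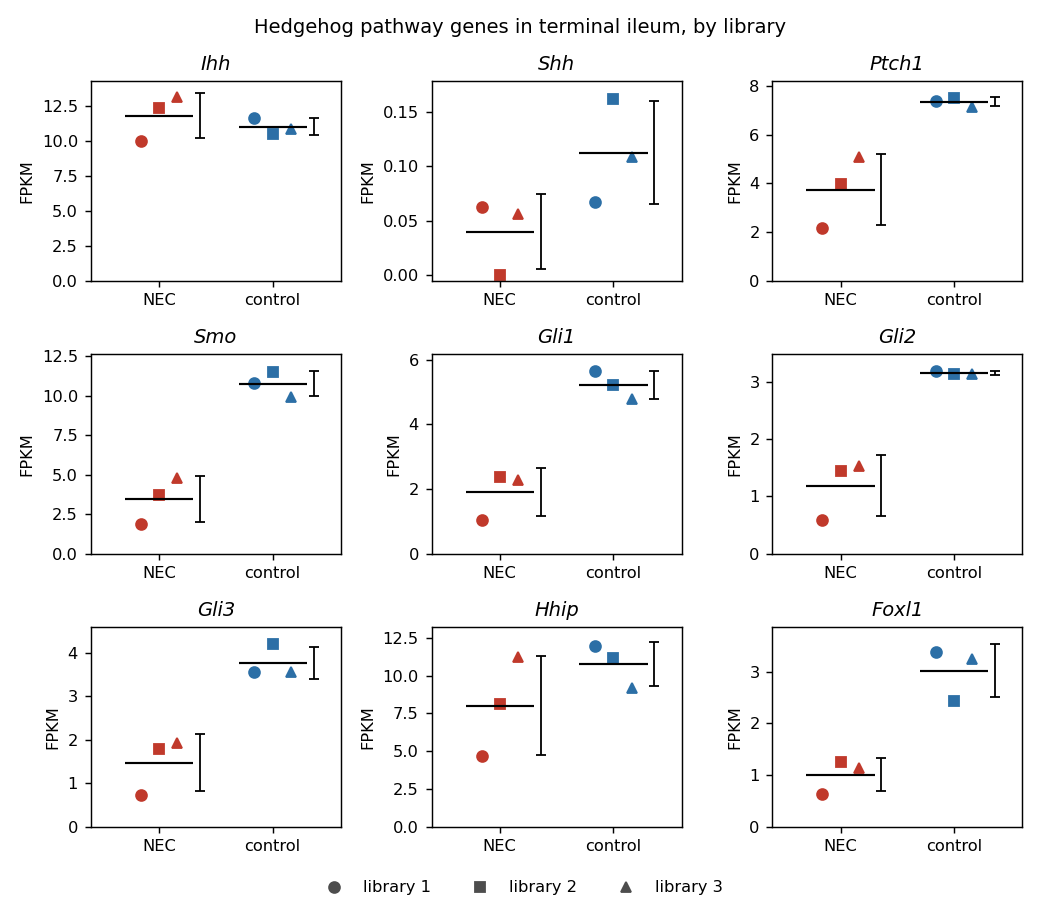
FPKM of the 9 members in each library, NEC left of control in each panel, with the group mean as a line and its SD as a bar (n = 3 each); points mark libraries 1, 2 and 3. In the panels of Smo, Ptch1, Gli1, Gli2, Gli3 and Foxl1 the 3 NEC libraries lie below the 3 controls, as in 47.3% of all tested genes. In those of Ihh and Hhip the groups overlap.

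Ihh, the ligand gene, on chromosome 1 (74945315 to 74951672), had 9.98, 12.3 and 13.1 FPKM in NEC 1, 2 and 3, against 11.6, 10.5 and 10.8 FPKM in control 1, 2 and 3. The groups overlapped, NEC 1 being the lowest of the 6 libraries and NEC 3 the highest. The log2 change was 0.09 (SE 0.12, 95% interval -0.20 to 0.37, with an adjusted p = 0.581 by limma and Benjamini-Hochberg), and these libraries do not tell apart changes within that interval. After TMM scaling it was 0.40 and passed as higher (with an adjusted p = 0.0141 by limma and Benjamini-Hochberg); it did not pass in the other 15 of 16 alternative settings.

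Shh, on chromosome 5 (28456815 to 28467256), was near 0 throughout. It had 0.0623, 0 and 0.0565 FPKM in NEC 1, 2 and 3, against 0.0674, 0.162 and 0.108 FPKM in control 1, 2 and 3. These values correspond to 3, 0 and 3 fragments in the NEC libraries and to 3, 7 and 5 in the controls. Every NEC value was below every control value, but 21 fragments in all are too few to describe a difference, and no fold is given.

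Among receptors, Ptch1, which binds the ligand and restrains Smoothened (chromosome 13, 63508328 to 63573598), had 2.18, 3.97 and 5.07 FPKM in NEC 1, 2 and 3, against 7.41, 7.52 and 7.15 FPKM in control 1, 2 and 3. The NEC libraries were all lower than the controls, NEC 1 most and NEC 3 least. The means were 3.74 ± 1.46 FPKM in NEC ileum, against 7.36 ± 0.192 FPKM in controls (n = 3 each, SD). The log2 difference, NEC minus control, came to -0.87 (SE 0.23, with an adjusted p = 0.0278 by limma and Benjamini-Hochberg). The call was lost after TMM scaling (-0.59, adjusted p = 0.0556), without a filter on low values (0.0527), without NEC 2 (0.0582) and without control 1, 2 or 3 (0.0856, 0.0881 and 0.0754).

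Hhip, a membrane protein that binds Hedgehog ligands and limits their reach (chromosome 8, 79965851 to 80058006), was the receiving gene with the smallest difference. It had 4.70, 8.12 and 11.2 FPKM in NEC 1, 2 and 3, against 12, 11.2 and 9.16 FPKM in control 1, 2 and 3. NEC 3 lay within the control range and NEC 1 at 0.437 times the control mean. The log2 change was -0.45 (SE 0.27, 95% interval -1.10 to 0.20, with an adjusted p = 0.227 by limma and Benjamini-Hochberg). Without NEC 1 it was -0.15, without NEC 3 -0.70 and after TMM scaling -0.14. It passed in none of 16 alternative settings, where the adjusted p ranged from 0.0547 to 0.656.

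Smo, the transducer that Patched inhibits (chromosome 6, 29735503 to 29761365), had the largest log2 fall of the 8 tested members. By the ratio of means without NEC 1, Foxl1 was at 0.393 and Smo at 0.395. Smo had 1.89, 3.71 and 4.79 FPKM in NEC 1, 2 and 3, against 10.8, 11.5 and 9.94 FPKM in control 1, 2 and 3. The groups were far apart, the highest NEC value being under the lowest control value by more than the spread within either group. The means were 3.46 ± 1.46 FPKM (NEC) and 10.8 ± 0.793 FPKM (control) (n = 3 each, SD), a ratio of 0.322, or 0.395 without NEC 1. The log2 change was -1.45 (SE 0.25, with an adjusted p = 0.00981 by limma and Benjamini-Hochberg), and 1.61% of tested genes had a lower one. It was called in each of 16 alternative settings, at -1.73 to -1.17.

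The 3 Gli genes fell by 0.96 to 1.13 on the log2(FPKM + 1) scale, and the size of the fall depends on that scale. Over the alternatives it ran from -1.54 to -0.81 for Gli1, -1.52 to -0.59 for Gli2 and -1.47 to -0.63 for Gli3, with a pseudocount of 0.01 at the one end and quantile normalization at the other. Gli1, both an activator and a target of the pathway (chromosome 10, 127329882 to 127341974), had 1.04, 2.38 and 2.28 FPKM in NEC 1, 2 and 3, against 5.65, 5.23 and 4.78 FPKM in control 1, 2 and 3. Its means were 1.90 ± 0.745 FPKM in NEC ileum, against 5.22 ± 0.438 FPKM in controls (n = 3 each, SD). The log2 difference came to -1.13 (SE 0.21, with an adjusted p = 0.0114 by limma and Benjamini-Hochberg). NEC 2 and NEC 3 were alike and NEC 1 was lower, and the groups did not overlap.

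Gli2, the main activator of the family (chromosome 1, 118834132 to 119053619), had 0.580, 1.44 and 1.54 FPKM in NEC 1, 2 and 3, against 3.19, 3.13 and 3.13 FPKM in control 1, 2 and 3. The log2 difference, NEC minus control, came to -0.96 (SE 0.19, with an adjusted p = 0.0145 by limma and Benjamini-Hochberg). Gli3, the main repressor (chromosome 13, 15463235 to 15730026), had 0.718, 1.78 and 1.92 FPKM in NEC 1, 2 and 3, against 3.57, 4.20 and 3.55 FPKM in control 1, 2 and 3. The log2 difference, NEC minus control, came to -0.98 (SE 0.22, with an adjusted p = 0.0176 by limma and Benjamini-Hochberg). In both genes the groups were separate and NEC 1 was again the lowest. Within a library, log2(FPKM + 1) of Gli1 minus that of Gli3 was 0.25, 0.28 and 0.17 in NEC 1, 2 and 3 and 0.54, 0.26 and 0.34 in control 1, 2 and 3. NEC minus control, it was -0.15, with overlapping groups (two-sided exact permutation p = 0.2; the smallest possible is 0.1). The Gli1 and Gli2 calls were lost without control 1 or control 2, and that of Gli3 without any 1 control (adjusted p up to 0.0517 for Gli1, 0.0585 for Gli2 and 0.0688 for Gli3).

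Foxl1, a forkhead factor of the mesenchymal cells that line the epithelium (chromosome 8, 121127940 to 121130644), had 0.633, 1.24 and 1.13 FPKM in NEC 1, 2 and 3, against 3.38, 2.43 and 3.24 FPKM in control 1, 2 and 3. These correspond to 29, 61 and 57 fragments in NEC and to 143, 100 and 142 in control. The means were 1.0 ± 0.324 FPKM in NEC ileum, against 3.02 ± 0.515 FPKM in controls (n = 3 each, SD), a ratio of 0.332. The log2 change was -1.01 (SE 0.17, with an adjusted p = 0.00938 by limma and Benjamini-Hochberg), and the call was kept in each of the 15 alternative settings in which Foxl1 was tested. Its pseudocount weighs on this value: with 0.01 in place of 1 the log2 change was -1.62, and with quantile normalization it was -0.64.

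**Figure D2:**
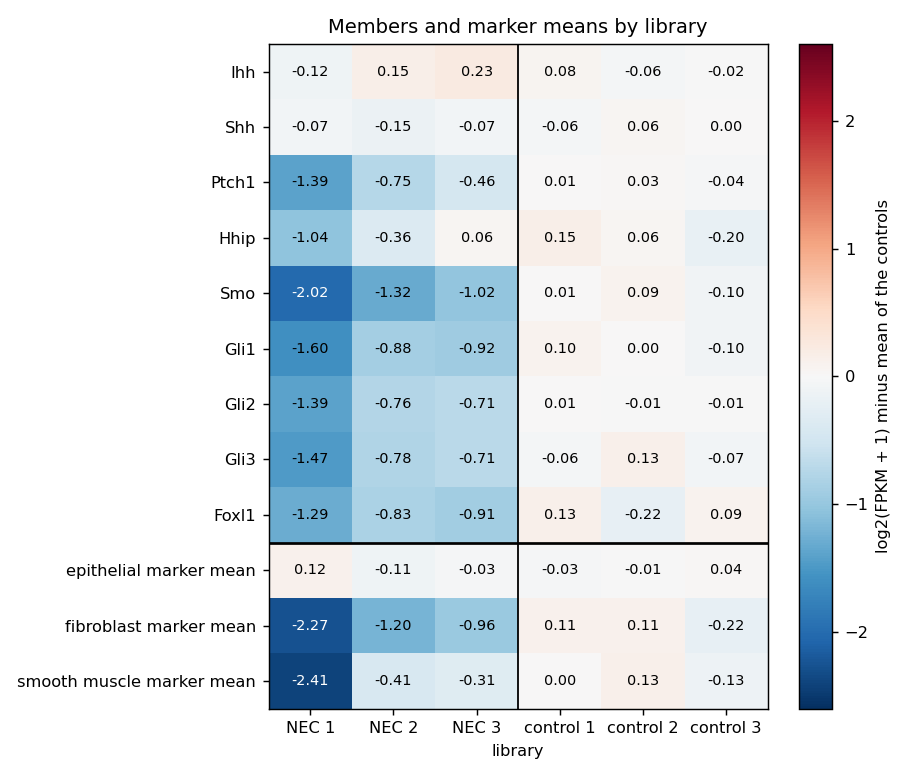
log2(FPKM + 1) of the members and of marker means in each library, minus the mean of the 3 controls, with NEC libraries in the left columns. Values in NEC 1, 2 and 3 were -2.02, -1.32 and -1.02 for Smo and -0.12, 0.15 and 0.23 for Ihh; the fibroblast mean ran from -2.27 to -0.96 and the epithelial mean from -0.11 to 0.12.

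The order of levels differed between the groups only in that Smo and Ptch1 changed places. In NEC ileum the order by mean FPKM was Ihh, Hhip, Ptch1, Smo, Gli1, Gli3, Gli2, Foxl1 and Shh, and the ranges of all neighbours overlapped except Foxl1 and Shh. In control ileum it was Ihh, Hhip, Smo, Ptch1, Gli1, Gli3, Gli2, Foxl1 and Shh. There the ranges of Ihh and Hhip, of Hhip and Smo, and of Gli2 and Foxl1 overlapped, and those of the other neighbours did not. NEC 1 was the lowest NEC library in all 8 tested members, where 64.0% of tested genes had that order. Without NEC 1, the same count of 6 members was called lower and none higher, where 5371 of 16029 tested genes were lower. Without control 1 or control 2 the count of lower members was 2, Smo and Foxl1, against 4 without control 3 and 5 without NEC 2. Without a control the count over all genes shrank too, to 1049 and 917 lower without control 1 and control 2, against 4829 with all libraries.

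The markers of the tissue compartments moved unequally, and these values stand beside every fall above. Of 9 tested fibroblast markers 8 fell, where 30.6% of all tested genes did, with a median log2 change of -1.63. Without control 1, 2 or 3 the count was 2, 2 and 3. Their summed level was 134 to 362 FPKM in the NEC libraries and 675 to 825 FPKM in the controls. The collagen genes Col6a2 and Col6a1 fell by 1.54 and 1.66 on the log2 scale, and Pdgfrb, a growth factor receptor, by 0.52. Of 8 tested markers of the subepithelial mesenchyme 6 fell, among them the signalling genes Bmp5 and Bmp3, by 1.17 and 1.95, and F3, tissue factor, by 1.33. Their summed level was 33.8 to 51.7 FPKM in NEC and 82.5 to 86.2 FPKM in control. The count was 4 without any 1 control. The tested markers of this list that did not pass were Sox6 and Nrg1. Their log2 changes were -0.28 and 0.22 (adjusted p = 0.319 and 0.222, limma, Benjamini-Hochberg). The groups overlapped for Sox6. Nrg1 went the other way, with all NEC libraries above all controls, where 11.8% of tested genes had that order. Of 6 tested markers of the crypt mesenchyme 5 fell, but 1, 0 and 1 without control 1, 2 or 3 and 3 without NEC 2. Their sum was 20.8 to 61.4 FPKM in NEC and 87.8 to 121 FPKM in control.

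Smooth muscle, another receiving cell type, differed in its pattern. None of 9 markers was called, though 7 had all NEC libraries below all controls, where 47.3% of tested genes had that order. Their sum was 159 FPKM in NEC 1, 778 in NEC 2 and 793 in NEC 3, against 903 to 1114 FPKM in the controls. Acta2, smooth muscle actin, had 38.4, 197 and 219 FPKM in NEC 1, 2 and 3, against 328, 355 and 285 FPKM in control 1, 2 and 3. Without NEC 1, 5 of the 9 were called lower, where 5371 of 16029 tested genes were. Of 12 epithelial markers, which mark the cells that make the ligand, 1 rose, Vil1 of the brush border (280 ± 7.40 FPKM in NEC and 166 ± 9.90 in control, n = 3 each, SD), and 1 fell, the keratin gene Krt19 (49.8 ± 15.8 FPKM in NEC and 130 ± 13 FPKM in control). Their sum was 1541 to 1853 FPKM in NEC and 1436 to 1544 FPKM in control, and their median log2 change was 0.00. No defining marker of these 5 lists was at 0 in all libraries. How far the cell mix takes part in the lower values of the members was not tested.

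**Figure D3:**
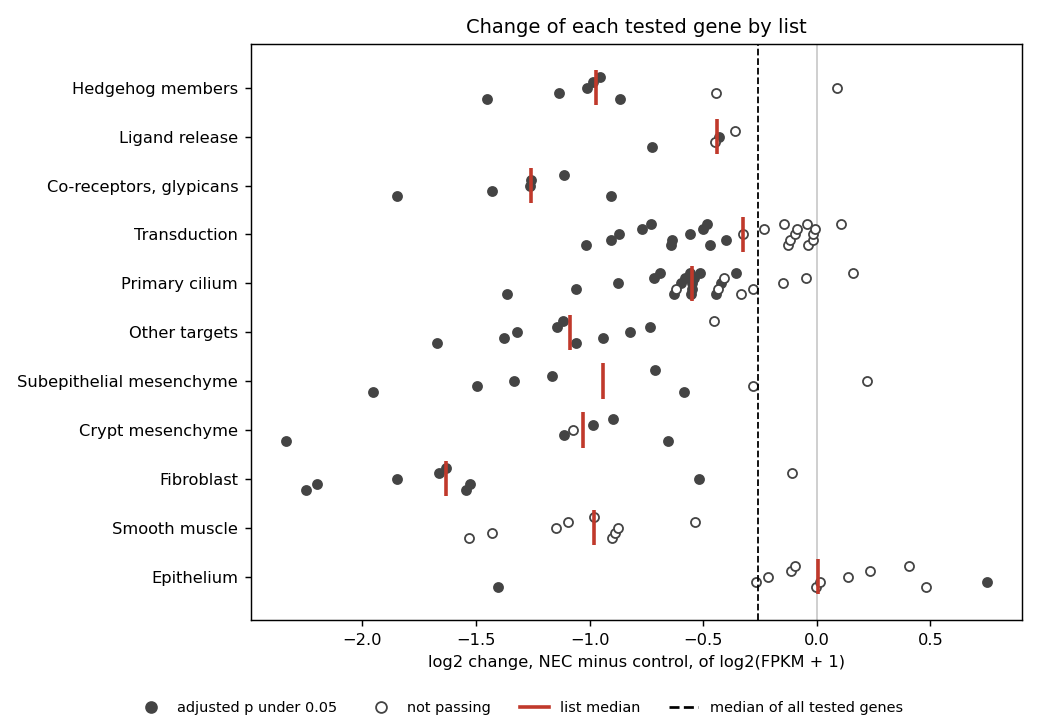
log2 change, NEC minus control, of each tested gene on the log2(FPKM + 1) scale, by list; filled points passed an adjusted p of 0.05, red bars are list medians and the dashed line is the median of all tested genes, -0.26. The list medians were -0.97 for the Hedgehog members, -1.63 for fibroblast markers, -0.98 for smooth muscle markers and 0.00 for epithelial markers.

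Each member was then set against the markers of its compartment in the same library, which takes out most of the library's scale. Relative to the mean of log2(FPKM + 1) over the 12 epithelial markers, Ihh was at -3.13, -2.62 and -2.61 in NEC 1, 2 and 3 and at -2.77, -2.93 and -2.94 in control 1, 2 and 3. The groups overlapped, and the difference was 0.09 (two-sided exact permutation p = 0.8). Shh had too few fragments for this measure to describe it. Relative to the mean over 9 fibroblast markers, which itself was at -1.48, NEC minus control, 6 of the 7 receiving genes had a difference of 0.34 or more. The lowest of these 6 was Gli1, and only 4.13% of all tested genes had a lower log2 change than Gli1. Nearly all tested genes would thus reach that mark, and the count does not set the receiving genes apart.

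Hhip had the largest difference of the receiving genes in that measure. Only 33.1% of all tested genes had a lower log2 change than Hhip, so most would have at least as large a difference. Hhip was at -0.96, -1.35 and -1.17 in NEC 1, 2 and 3, against -2.15, -2.24 and -2.17 in control 1, 2 and 3. The groups were separate, and the difference was 1.03, with 0.60 to 1.13 over 14 alternatives. The lowest was with smooth muscle markers in place of fibroblast markers (two-sided exact permutation p = 0.2). For Ptch1 the difference was 0.61, for Gli2 0.52 and for Gli3 0.49, also with separate groups. Against smooth muscle markers these shrank to 0.18 for Ptch1, 0.087 for Gli2 and 0.058 for Gli3 (two-sided exact permutation p = 1.0 each), and with a pseudocount of 0.01 to 0.51, 0.048 and 0.10 in the same order of genes. With fibroblast markers and a pseudocount of 1, for Hhip, Ptch1, Gli2 and Gli3 the two-sided exact permutation p was 0.1, the smallest that 3 libraries against 3 allow, and 0.225 after Benjamini-Hochberg adjustment over the 9 members, so no call was possible.

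Gli1 and Foxl1 differed by 0.34 and 0.47 relative to fibroblast markers, with overlapping groups (two-sided exact permutation p = 0.2 each). The sign of Gli1 turned with smooth muscle markers (-0.09), and that of Foxl1 with a pseudocount of 0.01 (-0.05). Smo had the smallest difference from the fibroblast markers between the groups. It was at -1.94, -2.30 and -2.25 in NEC 1, 2 and 3, against -2.28, -2.20 and -2.07 in control 1, 2 and 3. The difference was 0.02 (two-sided exact permutation p = 0.9), and its sign turned in 7 of 14 alternatives. Against smooth muscle markers it was -0.41. Any gene that fell by less than the fibroblast markers has a positive value here, as would a gene at the median of all genes.

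**Figure D4:**
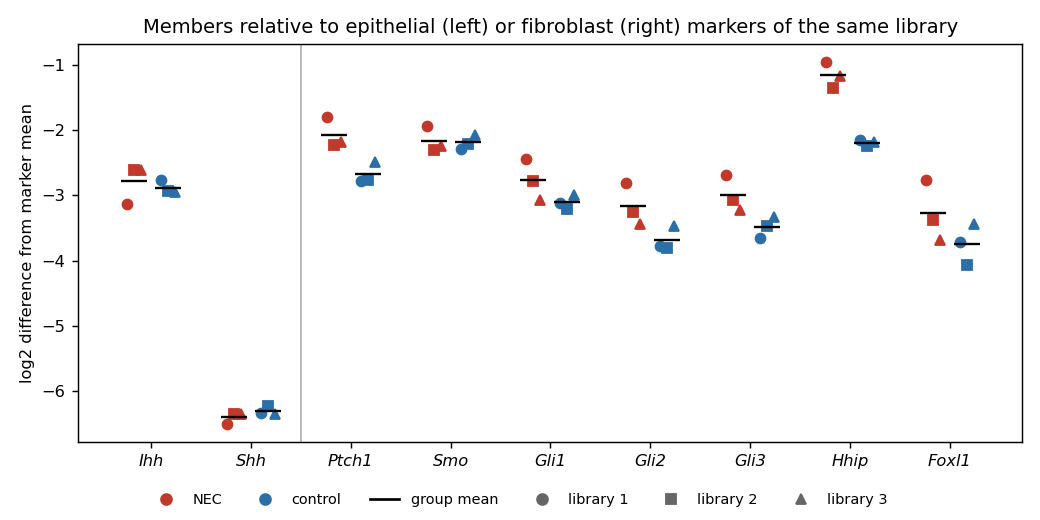
log2(FPKM + 1) of each member minus the mean over the epithelial markers (Ihh, Shh) or the fibroblast markers (the other 7 genes) of the same library, NEC left of control, with group means as lines. Hhip lies at -1.35 to -0.96 in the NEC libraries and at -2.24 to -2.15 in the controls, while Smo, Gli1, Foxl1, Ihh and Shh overlap; Shh rests on few fragments.

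Other genes of the pathway were described from 5 lists of 85 genes, of which 70 were tested. Of the tested genes, 46 were called lower, none higher and 24 did not pass, against 30.6% lower and 7.69% higher of all tested genes. Their median log2 change was -0.55. After TMM scaling 23 were lower and 5 higher, Tctn3, Mgrn1, Cul1, Kif3b and Prkaca, and after quantile normalization 26 were lower and 2 higher, Tctn3 and Mgrn1. Without control 1, 2 or 3 the lower genes numbered 12, 10 and 17, and without NEC 2 they numbered 29. Of all 15806 tested genes, 2255 were lower and 2634 higher after TMM scaling, and 2387 lower and 2202 higher after quantile normalization. The list counts after TMM scaling given below are to be read against the all-gene counts of that setting.

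The list of co-receptors and glypicans that bind Hedgehog had 6 of 6 tested genes lower, where 30.6% of all tested genes were. The median was -1.26, and 4 of 6 were lower after TMM scaling. Without control 1, 2 or 3 the count was 3, 2 and 4. Boc, a co-receptor that helps the ligand reach Patched, had 2.32, 3.14 and 4.24 FPKM in NEC 1, 2 and 3, against 6.20, 7.66 and 6.60 FPKM in control 1, 2 and 3 (log2 -0.91, with an adjusted p = 0.0139 by limma and Benjamini-Hochberg). Its relative Cdon was at 1.46, 4.19 and 4.55 FPKM in NEC 1, 2 and 3, against 8.29, 7.62 and 7.97 FPKM in control 1, 2 and 3. Gas1, the third co-receptor, was at 2.34, 10.2 and 8.79 FPKM in NEC 1, 2 and 3, against 19.6, 19.0 and 16.4 FPKM in control 1, 2 and 3. All 3 co-receptors had separate groups, with NEC 1 lowest. Of all tested genes, 47.3% had all NEC libraries below all controls and 64.0% had NEC 1 as the lowest NEC library. The Cdon and Gas1 calls (-1.11 and -1.43, adjusted p = 0.0300 and 0.0417, limma, Benjamini-Hochberg) were lost after TMM scaling and without any 1 control, and the Boc call without control 2. The glypican genes Gpc3, a negative regulator of Hedgehog in the mouse embryo, and Gpc6 fell by 1.26 each. Lrp2, an endocytic receptor that the absorptive epithelium also uses, fell by 1.85.

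Genes that Hedgehog input is known to raise had 9 of 10 lower and none higher, with a median of -1.09, and 7 lower after TMM scaling. Without control 1, 2 or 3 the lower genes numbered 4, 4 and 6, and without NEC 2 they numbered 6. Foxf1, a forkhead factor of gut mesenchyme (chromosome 8), had 9.42, 12.4 and 13.3 FPKM in NEC 1, 2 and 3, against 25.1, 25.3 and 25.3 FPKM in control 1, 2 and 3. The controls were nearly alike, and the NEC mean was 0.464 times theirs. Its log2 change was -1.06 (SE 0.13, with an adjusted p = 0.00512 by limma and Benjamini-Hochberg). Bmp4, a bone morphogenetic protein sent from mesenchyme to epithelium, had 1.93, 3.20 and 4.10 FPKM in NEC 1, 2 and 3, against 9.40, 10.1 and 8.49 FPKM in control 1, 2 and 3. The log2 difference, NEC minus control, came to -1.38 (SE 0.21, with an adjusted p = 0.00743 by limma and Benjamini-Hochberg). Foxf2, the paralog of Foxf1, fell by 1.12, Sfrp1, a secreted Wnt inhibitor, by 1.67, Osr1, a zinc finger factor, by 1.14 and Rab34, a small GTPase needed for cilia, by 0.82. The Foxf2 and Sfrp1 calls were lost without control 1 or control 2. Mycn was the gene that did not pass, with 2.81 ± 1.13 FPKM in NEC ileum, against 4.10 ± 0.438 FPKM in controls (n = 3 each, SD).

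Release of the ligand had fewer tested genes. Of 4, the carrier genes Scube1 and Scube2 fell by 0.43 and 0.72, and Disp1 and Disp2, which encode Dispatched proteins, did not pass. Both Scube calls were lost after TMM scaling, with quantile normalization, without NEC 2 and without any 1 control, and that of Scube2 also with smaller pseudocounts and without a filter. Disp2 had 0.348, 2.91 and 2.96 FPKM in NEC 1, 2 and 3, against 2.64, 2.85 and 2.17 FPKM in control 1, 2 and 3, so NEC 1 alone was low. Dhh, the third ligand, had at most 0.0778 FPKM in any library. Hhat, which puts the fatty acid on the ligand, was under the filter, at 0.598 to 0.646 FPKM in NEC and 0.900 to 1.16 FPKM in control.

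In the cytoplasmic and ciliary transduction list 12 of 25 tested genes fell and none rose, with a median of -0.32, near the -0.26 of all tested genes. After TMM scaling 6 fell and 3 rose, and 2 to 3 fell without any 1 control. Gpr161, a ciliary receptor that keeps the pathway off, had 0.500, 1.08 and 0.885 FPKM in NEC 1, 2 and 3, against 2.53, 2.73 and 2.69 FPKM in control 1, 2 and 3 (log2 -1.01, with an adjusted p = 0.00692 by limma and Benjamini-Hochberg). Evc2, a partner of Smoothened at the cilium, fell by 0.87 and Sufu, which holds Gli proteins inactive, by 0.56. Btrc, which recognises Gli3 for processing, fell by 0.64, Tulp3, which carries receptors into the cilium, by 0.47, and Dyrk2, a kinase of Gli2, by 0.90. The Sufu and Tulp3 calls were lost after TMM scaling, with quantile normalization and without any 1 control. The Btrc call was lost without control 1 or control 2, and the Dyrk2 call without control 2 or control 3. The catalytic subunit gene of protein kinase A, Prkaca, had 28.2 ± 3.06 FPKM in NEC ileum, against 29.0 ± 2.72 FPKM in controls (n = 3 each, SD) and did not pass.

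Of 25 tested genes of the primary cilium, on which Smoothened acts, 17 fell and none rose, with a median of -0.55. After TMM scaling 6 fell and 2 rose, 2 to 4 fell without any 1 control and 9 without NEC 2. The motor genes Dync2h1 and Dync2li1, which bring material back from the ciliary tip, fell by 0.87 and 1.37. Dync2li1 had 0.325, 0.991 and 1.5 FPKM in NEC 1, 2 and 3, against 4.00, 4.14 and 3.39 FPKM in control 1, 2 and 3. Ttbk2, a kinase that starts cilium assembly, fell by 0.63, Bbs4 by 0.58, Tctn1 by 0.55 and Ofd1 by 0.42. The calls of Ttbk2, Tctn1 and Ofd1 were lost without any 1 control and that of Bbs4 without control 1 or control 2. Those of Tctn1 and Ofd1 were also lost after TMM scaling, and those of Bbs4, Tctn1 and Ofd1 with quantile normalization.

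The genes nearest in pattern over the 6 libraries were found by the root mean square difference of centred log2(FPKM + 1) values. For Ihh they were Slc30a5, Cptp, Itpkc, Ndufa8 and Csnk2a1, with differences of 0.0129 to 0.0387. For Gli1 they were Tspan3, Loxl2, Cdca7, Wls and Tgfbi, with differences of 0.0332 to 0.0721. Tspan3 had 7.15, 13.2 and 12.8 FPKM in NEC 1, 2 and 3, against 27.6, 25.2 and 22.7 FPKM in control 1, 2 and 3. Of protein-coding genes whose mean reached 5 FPKM 5836 were compared for Ihh and 5837 for Gli1, and 6 libraries in 2 groups leave many genes with a like pattern.

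Some members share exon sequence with another annotated gene, and the strand setting of the counting is not given in the sources used here. Arhgap9 and Gm47200 overlap Gli1, Gm6556 overlaps Gli3, Gm27820 overlaps Hhip, and 9530036O11Rik and Gm26894 overlap Shh. The matched ones lie on the opposite strand from the member, so their reads can be told apart only if the counting used strand. Arhgap9 had 1.61 to 1.95 FPKM in NEC and 2.17 to 2.41 FPKM in control, and the others that were matched had at most 0.392 FPKM.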

How the data were processed

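The members and gene lists were chosen with earlier results of these data known. Per the labels' protocols, samples with an RNA integrity number above 7 were used. The submitters' processing notes name build mm10 and the tools SAMtools 1.3.1, HISAT2 and Cuffdiff. Other versions, annotation and strand setting are not given in the sources used here. A unit is absent from the deposited table, and its values were taken to be the authors' FPKM, because Cuffdiff writes FPKM and 98.75% or more of the low values of single-transcript genes per library were whole steps of 1 fragment within 0.05. Columns that begin with N were read as NEC. Symbols and coordinates came from GENCODE mouse release 21 (GRCm38), which matched 55141 identifiers, and promoters from RefSeq.

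Differences in log2(FPKM + 1) were fitted with limma-trend (limma 3.58.1, R 4.3.3), group being the only term. Tested genes reached a mean of 1 FPKM, and the threshold was 0.05 on the Benjamini-Hochberg adjusted p. This scale understates the change of low genes. Relative levels had two-sided exact permutation tests. Named were all members, up to 6 genes per pathway list and 3 per marker list with the smallest p, and the 5 nearest genes in pattern to Ihh and Gli1. Epcam, Mycn, Prkaca, Dhh, Hhat, Sox6 and Nrg1, and the genes called only after another scaling, were named outside this rule after their values were seen. Alternatives were other pseudocounts (0.1, 0.01), filters (none, or a mean of 5 FPKM), scalings (TMM without weights, quantile, protein-coding) and marker sets, sample weights, a fit without trend, a replicate block, and each library left out. The test was checked on simulated data. Some listed genes are not reported here.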

Additional observations from a re-analysis of the deposited data

How the results depend on the processing

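With 3 libraries a group and depth as an estimate, small changes of low genes could not be seen. In the simulated data, 54.0% of log2 changes of 1 and 90.0% of log2 changes of 2 were recovered over 15806 genes. A gene that did not pass may thus still differ. Apart from members left out by a filter, the cause of each change below was not tested. Genes called higher over the whole table numbered 1215, against 2634 after TMM scaling, 2202 with quantile normalization and 471 to 1566 with a library left out. Those called lower numbered 4829, against 1746 at a mean of at least 5 FPKM, 2255 after TMM scaling, 2387 with quantile normalization and 917 to 5378 with a library left out. Members called lower numbered 6, against 2 at a mean of at least 5 FPKM and 2 to 6 with a library left out. With that filter Smo and Ptch1 kept their calls, and Gli1, Gli2, Gli3 and Foxl1, with means of 2.01 to 3.56 FPKM, were not tested. After TMM scaling 1 member, Ihh, was higher. Other pathway genes called lower numbered 46, against 16 at a mean of at least 5 FPKM, 23 after TMM scaling, 26 with quantile normalization and 10 to 49 with a library left out. Those called higher numbered 0, against 5 after TMM scaling, 2 with quantile normalization, 1 with sample weights and 0 to 1 with a library left out.

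Relative to its compartment, Smo was at 0.02 and turned to -0.14 and -0.16 with pseudocounts of 0.1 and 0.01, -0.016 after TMM scaling, -0.41 against smooth muscle markers and -0.30 against all mesenchymal markers, with -0.089 to 0.094 when a library was left out. Gli1 turned to -0.091 against smooth muscle markers and Foxl1 to -0.053 with a pseudocount of 0.01. Disp2, at -0.36, was at 0.0019 with quantile normalization, 0.025 with sample weights and -0.62 to 0.15 with a library left out.

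Each gene's deviations from its group mean were correlated between NEC and control libraries. Same-numbered libraries gave -0.05, -0.01 and -0.07, and no NEC library correlated best with the control of its own number. These values do not show whether same-numbered libraries share more than a number. With the replicate number as a block, 856 genes were higher and 3230 lower, 6 members and 33 other pathway genes among the lower.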

Other observations

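Markers of other cell types of the gut wall were described too. Over all tested genes 30.6% were called lower, a share to set beside each count of this section. Counts with a control left out are not given for these lists. Over all genes, lower calls went from 4829 to 917 without control 2. Of 5 tested neural markers 4 fell, with a median log2 change of -0.95 on the log2(FPKM + 1) scale. Uchl1, a neuronal ubiquitin hydrolase, fell by 1.03 and Elavl4, a neuronal RNA-binding protein, by 0.63. Ret, the receptor of the enteric nervous system, was at 24.7 to 26.9 FPKM in NEC and 25.2 to 26.7 FPKM in control and did not pass. Of 7 endothelial markers 4 fell, among them Pecam1 by 0.80, Esam by 0.48 and Cdh5 by 0.48, all genes of contacts between endothelial cells.

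Of 5 tested erythroid markers 4 fell, where 30.6% of all tested genes did. Hbb-bt, a beta globin gene, had 65.4, 60.5 and 63.9 FPKM in NEC 1, 2 and 3, against 256, 310 and 306 FPKM in control 1, 2 and 3, and Alas2, of haem synthesis, fell by 1.61. Near-identical globin genes can share reads, so single values are uncertain. Of 6 tested immune markers 1 fell, the macrophage gene Adgre1, by 0.87. S100a8, a neutrophil gene, had 23.4, 27.4 and 23.2 FPKM in NEC 1, 2 and 3, against 1.69, 26.0 and 25 FPKM in control 1, 2 and 3, so control 1 alone was low. Ctrb1, a pancreatic protease gene, was at 10.8, 4.45 and 1.34 FPKM in NEC 1, 2 and 3, against 0.292, 0.150 and 0 FPKM in control 1, 2 and 3, and was called higher (adjusted p = 0.0219, limma, Benjamini-Hochberg). Of the 9 pancreas and liver markers 2, Pnlip and Ahsg, were listed at 0 in all libraries. Ret, S100a8, Pnlip and Ahsg were chosen after their values were seen.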
